A study of Mus musculus with 5 samples.

Results

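The genes described here are 10 mouse genes of MHC class I antigen presentation and the immunoproteasome, chosen by gene symbol from the 55471 genes in the deposited tables. They are the heavy chains H2-K1 and H2-D1, the light chain B2m, the peptide transporter subunits Tap1 and Tap2, the loading factor Tapbp, the immunoproteasome subunits Psmb8, Psmb9 and Psmb10, and the transcriptional activator Nlrc5. RNA was sequenced from a piece of colon of male C57BL/6 mice, 11 weeks old, taken on day 3 after colitis had been induced with TNBS, a hapten that inflames the colon. Mice had received propyzamide, a herbicide that disrupts plant microtubules (3 libraries), or vehicle (2 libraries), and all 5 libraries come from mice with TNBS. The series title places the herbicide in a preclinical model of inflammatory bowel disease, and the design gives 1 comparison, propyzamide against vehicle. The labels name neither the dose, nor the vehicle substance, nor the segment of colon. Mice without TNBS were not analysed here, so the values say nothing of how colitis itself changed these genes.

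MHC class I molecules display short peptides from inside the cell on the surface of nearly all nucleated cells, where CD8 T cells and NK cells read them. Proteasomes cut proteins into peptides, the TAP transporter moves these into the endoplasmic reticulum, and tapasin helps load them onto a heavy chain paired with beta-2-microglobulin. Interferon-gamma raises most genes of the pathway, and under it Psmb8, Psmb9 and Psmb10 take the places of the constitutive catalytic subunits Psmb5, Psmb6 and Psmb7, which forms the immunoproteasome. In the gut, epithelial cells as well as leukocytes carry class I, so a piece of colon holds transcripts of the pathway from several cell types. In RNA from whole tissue, fewer cells of a type and less RNA per cell cannot be told apart.

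Upstream stretches are shown for the class I chains and for the pair Psmb9 and Tap1, because their letters can be set beside the values that follow. The first 3 stretches below are the 250 bases before the RefSeq start of each gene (GRCm38.p6), printed in the direction of transcription: H2-K1 at chr17:34000348-34000597 on the minus strand, H2-D1 at chr17:35262844-35263093 on the plus strand and B2m at chr2:122147437-122147686 on the plus strand. The last is the 225 bases at chr17:34187331-34187555, given on the plus strand, that lie between the RefSeq starts of Psmb9 and Tap1, neighbours transcribed away from each other. Capitals mark matches to a kappa B motif (GGGATTCCC) or an interferon response motif (GAAANNGAA), and the stretch between Psmb9 and Tap1 holds neither.
H2-K1: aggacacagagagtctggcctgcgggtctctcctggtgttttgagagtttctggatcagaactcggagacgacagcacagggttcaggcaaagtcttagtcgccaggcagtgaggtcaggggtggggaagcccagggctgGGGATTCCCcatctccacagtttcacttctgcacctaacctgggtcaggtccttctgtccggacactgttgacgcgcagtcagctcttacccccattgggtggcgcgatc
H2-D1: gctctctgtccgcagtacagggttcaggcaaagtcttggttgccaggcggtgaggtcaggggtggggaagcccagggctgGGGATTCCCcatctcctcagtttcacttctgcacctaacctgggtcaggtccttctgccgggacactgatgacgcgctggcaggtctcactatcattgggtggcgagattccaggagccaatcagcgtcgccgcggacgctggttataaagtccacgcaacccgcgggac
B2m: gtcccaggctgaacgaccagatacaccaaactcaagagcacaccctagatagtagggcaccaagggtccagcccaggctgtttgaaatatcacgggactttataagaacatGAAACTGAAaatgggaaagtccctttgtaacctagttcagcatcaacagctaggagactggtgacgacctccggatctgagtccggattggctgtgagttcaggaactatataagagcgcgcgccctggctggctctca
Psmb9 and Tap1: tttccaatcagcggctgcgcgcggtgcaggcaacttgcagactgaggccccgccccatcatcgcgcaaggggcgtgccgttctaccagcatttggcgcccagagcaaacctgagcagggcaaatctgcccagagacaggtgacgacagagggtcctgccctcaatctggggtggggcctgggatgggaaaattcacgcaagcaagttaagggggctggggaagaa
RefSeq promoters were found for 8 of the 10 genes, all but Tap2 and Nlrc5. Both strands of each 250-base window were searched for the exact letters given, so near forms of a motif were not counted or marked. The kappa B motif was present before H2-K1 and H2-D1 and in 0.301% of the 32851 promoter windows of the same length. The interferon response motif, in these exact letters, was present before B2m alone among the 8 genes, and in 7.13% of all windows. The H2-K1 and H2-D1 stretches share the letters cagtttcacttct after the kappa B match, and B2m holds gggaaagtccc. Neither run was searched for. The exact matches therefore do not show that the heavy chains lack an interferon element or that B2m lacks a kappa B element. A gamma-activated site (TTCNNNGAA) was present before Psmb8 alone and in 7.02% of all windows. CCAAT, the core of the Y box of class I promoters, was present before H2-K1, H2-D1, B2m, Tapbp, Psmb9 and Tap1, against 33.8% of all windows. TGACG, an element found in the X box region, was present before H2-K1, H2-D1, B2m, Psmb9 and Tap1, against 17.8% of all windows. The Psmb9 and Tap1 windows overlap, so their matches are the same bases. A match is a run of letters, not a shown binding site.

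The libraries held 1573700 to 2706885 estimated counts. Once rRNA-like and mitochondrial genes were set aside, 823560 to 1328836 counts per library remained. The libraries differed in tissue markers. Smooth-muscle markers summed to 5232 to 8788 CPM (counts scaled to library size with TMM factors) in propyzamide and to 464 and 3016 CPM in vehicle, with 8 of 8 markers tested, 8 positive and 0 called by edgeR, against 5 by DESeq2 and 7 by edgeR without vehicle replicate 2. Their median log2 fold change was 2.06, or 1.19 with vehicle replicate 1 left out and 4.03 with vehicle replicate 2 left out. Of 10 small-intestinal markers, 5 were tested. Among the untested ones, Gata4 lay lower in propyzamide (0, 0 and 2 counts, against 5 and 5 in vehicle), and Fabp6, Apoa4, Lct and Sis overlapped in CPM. All 10 summed to 302 to 1134 CPM in propyzamide and to 38.5 and 53.3 CPM in vehicle. Of the tested markers, 3 (Fabp2, Alpi and Slc10a2) were called higher. With vehicle replicate 1 left out 2 were called, and with vehicle replicate 2 left out 1 was. Of 10 colon markers, 9 were tested, and Hoxd13 and Hoxb13, genes of the posterior gut, were called lower, with Hoxd13 at 0 counts in all 3 propyzamide libraries. Hoxa13, of the same list, lay the other way, at 10.2, 13.9 and 10.3 CPM in propyzamide and 4.55 and 9.08 CPM in vehicle. Its log2 fold change was 0.77 ± 0.57 (edgeR adjusted p = 0.534). Another colon gene, the carbonic anhydrase Car1, was also higher, at 2434 to 6098 CPM in propyzamide and 869 and 969 CPM in vehicle (log2 fold change 2.04 ± 0.58, edgeR adjusted p = 0.0845). Of the 9 colon markers 3 were positive and 6 negative. Background, estimated from reads on olfactory and vomeronasal receptor genes, came to at most 0.490%, 5.05% and 1.83% of those remaining counts in propyzamide and 9.56% and 7.43% in vehicle. Each deposited table is named with a pair of sequence tags, and the second tag was 1 and the same within each group and shared by 0 libraries across groups, so whatever it marks and the treatment cannot be told apart.

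At the level of whole genes, no member differed between propyzamide and vehicle past the threshold. edgeR's quasi-likelihood test, adjusted over all 12024 genes tested, called 0 of the 9 members that passed the filter on low counts at an adjusted p under 0.05, and DESeq2 also called 0. Over all genes, edgeR called 1.9%, with 0.69% higher and 1.21% lower in propyzamide, and DESeq2 called 4.7%. At an unadjusted p under 0.05 there was 1 member, Psmb9, against 18.2% of all genes. With 5 libraries, a gene that was not called is not shown to be unchanged, and the 95% intervals in the plot of fold changes show the range of sizes for each tested member. The tenth gene, Nlrc5, did not pass the filter. Of the 9 tested members, 3 had a positive and 6 a negative log2 fold change, against 49.1% positive over all genes, and their median was -0.56 against -0.02 over all genes. The groups did not overlap in CPM for 4 members, of which H2-D1, Tapbp and Psmb9 were lower in propyzamide and Psmb10 was higher. Over all genes, 37.5% did not overlap, 20.8% lower and 16.7% higher in propyzamide, so 4 of 9 lies near the background.

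**Figure D1:**
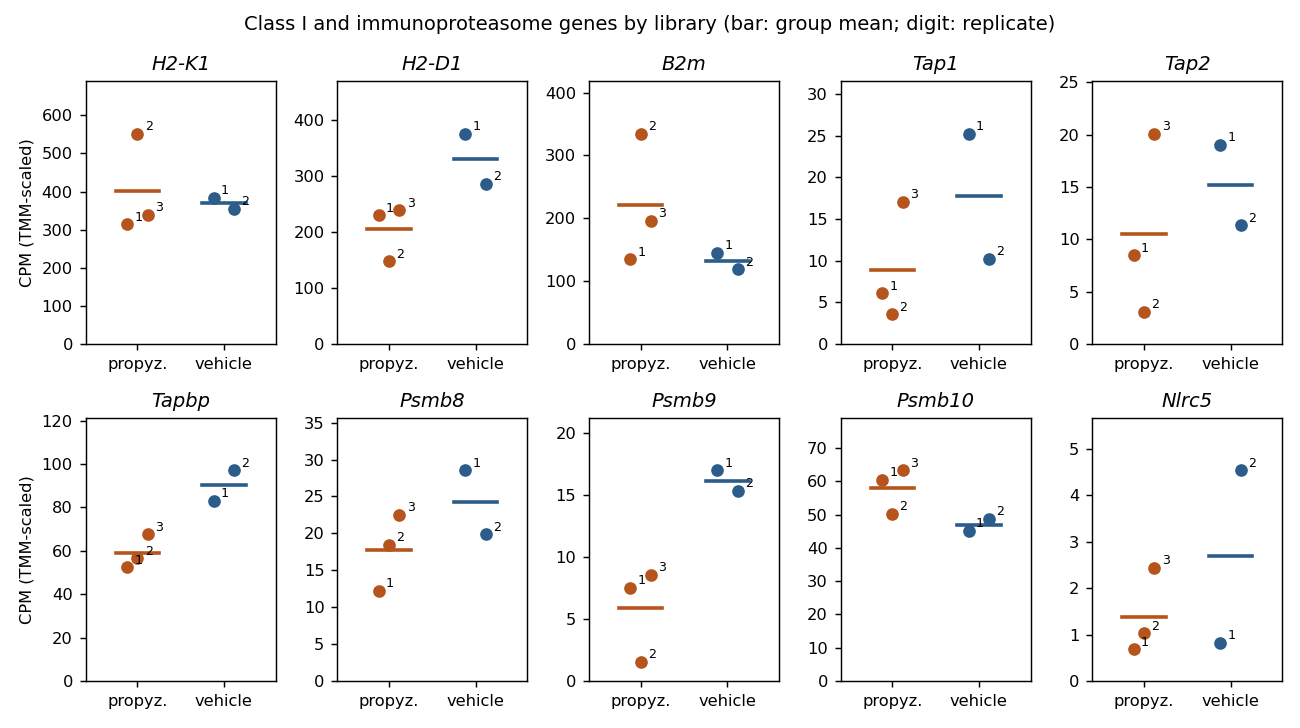
TMM-scaled CPM (y axes, linear, from 0) of each of the 10 genes in the 3 propyzamide libraries (left of each panel) and the 2 vehicle libraries (right), with bars at the group means and digits for the replicate. H2-D1, Tapbp and Psmb9 lie lower in all 3 propyzamide libraries, Psmb10 lies higher, and the groups of the other genes overlap.

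The most abundant members per length were the cell-surface chains. In TPM, a measure that allows for transcript length, H2-K1 averaged 547 ± 186 over the 5 libraries (SD, n = 5), B2m 259 ± 106, H2-D1 156 ± 114 and Psmb10 107 ± 21.6. Tapbp followed at 29.7 ± 15.2 TPM, then Psmb8 at 21.3 ± 16.6, Psmb9 at 14.8 ± 12.5, Tap1 at 6.60 ± 6.59, Tap2 at 5.61 ± 3.95 and Nlrc5 at 0.884 ± 0.747 TPM. H2-K1 stood above B2m, and B2m above H2-D1, in 5 of 5 libraries, although their ranges overlapped. H2-D1 exceeded Psmb10 in 3 of 5 libraries only. The ranges of neighbours in this order overlapped except between Psmb10 and Tapbp, where the lowest Psmb10 value (76.4 TPM) lay above the highest Tapbp value (55.7 TPM). The rank of Psmb10 rests on its non-coding forms. Its coding form Psmb10-201 had 28.2, 8.31 and 10.2 TPM in propyzamide and 43.9 and 8.24 TPM in vehicle. The rest fell on forms annotated as retained intron or processed transcript.

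H2-K1 and H2-D1 encode the classical heavy chains, the polymorphic part of the molecule that holds the peptide. H2-K1 (chromosome 17 from 33996017 to 34000347, minus strand) had 314, 552 and 338 CPM in propyzamide and 384 and 354 CPM in vehicle. The vehicle values lay inside the propyzamide range, and replicate 2 of propyzamide was the highest library. Its log2 fold change was 0.12 ± 0.39 (SE; edgeR adjusted p = 0.914), and the 95% interval ran from 0.602-fold to 1.96-fold. H2-D1 (chromosome 17 from 35262730 to 35267499, plus strand) had 230.1, 148 and 239 CPM in propyzamide and 376 and 287 CPM in vehicle. All 3 propyzamide values lay under both vehicle values, with replicate 2 of propyzamide the lowest. Its log2 fold change was -0.69 ± 0.37 (SE; edgeR adjusted p = 0.352), with a 95% interval from 0.357-fold to 1.08-fold. In TPM, without scaling between libraries, the groups of H2-D1 overlapped.

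Within a library, the TPM of H2-D1 was 0.281, 0.0850 and 0.247 times that of H2-K1 in propyzamide, and 0.483 and 0.352 times in vehicle. The ratio of counts was 0.733, 0.269 and 0.707 in propyzamide and 0.980 and 0.810 in vehicle. Both ratios were lower in all 3 propyzamide libraries, with replicate 2 the farthest from vehicle, and neither depends on scaling between libraries. No test was made on ratios, and how often they do not overlap over other pairs of genes was not computed. The TPM of H2-K1 includes H2-K1-215, a short form annotated as a retained intron. This form made up 39.18%, 46.85% and 40.83% of the H2-K1 TPM in propyzamide and 17.72% and 26.93% in vehicle. Its part in the lower ratios was not tested. The division of reads between these genes is uncertain because they resemble each other: 16.7% of the 25-base words in the coding transcript H2-D1-202 also occur in H2-K1 transcripts, and 5.31% of its 50-base words do. Of the coding transcript H2-K1-201, 21.8% of 25-base words and 6.94% of 50-base words occur in H2-D1. With all 30 annotated class I genes of the H2-K, H2-D, H2-Q, H2-T and H2-M series summed to 1 feature, the log2 fold change was -0.26 ± 0.39 (SE; edgeR adjusted p = 0.796), with a 95% interval from -1.11 to 0.60.

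B2m encodes beta-2-microglobulin, the light chain shared by classical and non-classical class I molecules. It had 135, 335 and 196 CPM in propyzamide and 146 and 119 CPM in vehicle. Replicates 2 and 3 of propyzamide lay above both vehicle libraries and replicate 1 lay between them. The log2 fold change was 0.74 ± 0.42 (SE; edgeR adjusted p = 0.382), with a 95% interval from 0.889-fold to 3.16-fold, and it was 0.31 without replicate 2 of propyzamide. The summed TPM of H2-K1 and H2-D1 was 2.96, 2.14 and 2.38 times that of B2m in propyzamide and 3.04 and 3.59 times in vehicle. The groups did not overlap in this ratio, but replicate 1 of propyzamide lay close to replicate 1 of vehicle. The share of other gene pairs whose ratios do not overlap was not computed.

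**Figure D2:**
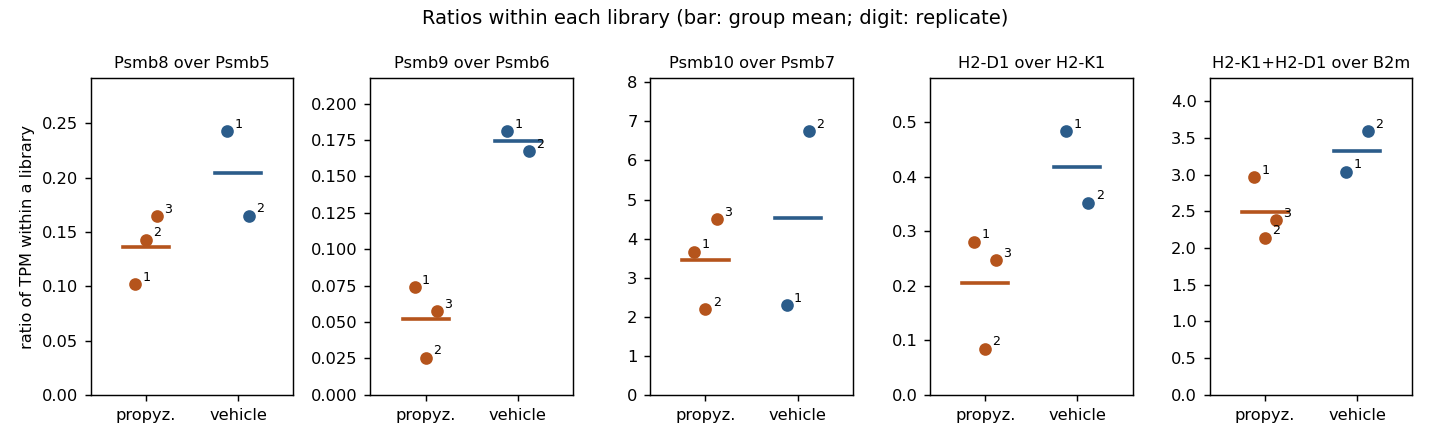
Ratios of TPM within each library (y axes, linear, from 0) for the 3 propyzamide libraries (left of each panel) and the 2 vehicle libraries (right), with bars at the group means and digits for the replicate. The ratio of Psmb9 to Psmb6 is at most 0.0739 in propyzamide and at least 0.167 in vehicle, while that of Psmb10 to Psmb7 overlaps.

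Tap1 and Tap2 encode the subunits of the peptide transporter, and both are of low abundance here. Tap1 had 6.12, 3.59 and 17.05 CPM in propyzamide, from 18, 7 and 28 counts, and 25.2 and 10.2 CPM in vehicle, from 61 and 18 counts. Tap2 had 8.50, 3.08 and 20.1 CPM in propyzamide, from 25, 6 and 33 counts, and 19.0 and 11.3 CPM in vehicle, from 46 and 20 counts. The groups overlapped for both, and in propyzamide replicate 3 was highest and replicate 2 lowest for both. The log2 fold change was -1.04 ± 0.65 for Tap1 (SE; edgeR adjusted p = 0.435). It was -0.56 ± 0.65 for Tap2 (SE; edgeR adjusted p = 0.711). The 95% intervals ran from 0.184-fold to 1.29-fold for Tap1 and from 0.255-fold to 1.81-fold for Tap2. Without vehicle replicate 1 the value of Tap1 was -0.24, and without propyzamide replicate 3 it was -1.85. Tap2 stood at -0.15 without vehicle replicate 1 or propyzamide replicate 2, and at -1.36 without propyzamide replicate 3. The annotated spans of Tap1 and Psmb9 overlap over 212 bases (34187553 to 34187764 of chromosome 17), where reads cannot be assigned to 1 gene without strand.

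Tapbp encodes tapasin, which bridges the transporter and the heavy chain during loading. Tapbp had 52.3, 56.5 and 67.6 CPM in propyzamide and 83.1 and 97.0 CPM in vehicle. The values were lower in all 3 propyzamide libraries than in either vehicle library, in CPM and in TPM. The log2 fold change of -0.62 ± 0.33 (SE) did not pass the test (edgeR adjusted p = 0.350), and its 95% interval ran from 0.398-fold to 1.07-fold.

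The 3 immunoproteasome subunits had log2 fold changes of both signs, and 0 of the 3 passed the test. Psmb9, which replaces Psmb6, had 7.48, 1.54 and 8.52 CPM in propyzamide, from 22, 3 and 14 counts, and 16.96 and 15.3 CPM in vehicle, from 41 and 27 counts. Each propyzamide library was lower than both vehicle libraries. Its log2 fold change was the most negative among the members, at -1.45 ± 0.63 (SE), with a 95% interval from 0.142-fold to 0.941-fold. The unadjusted p was 0.0389 and the edgeR adjusted p 0.242, so the difference did not pass once adjusted over all genes. Psmb8, which replaces Psmb5, had 12.2, 18.5 and 22.5 CPM in propyzamide and 28.5 and 19.9 CPM in vehicle, with overlapping groups and a log2 fold change of -0.47 ± 0.43 (SE; edgeR adjusted p = 0.619). Psmb10, which replaces Psmb7, had 60.5, 50.3 and 63.3 CPM in propyzamide and 45.1 and 48.8 CPM in vehicle. Psmb10 was higher in all 3 propyzamide libraries, although the replicates 2 nearly met and the groups overlapped in TPM, with a log2 fold change of 0.31 ± 0.34 (SE; edgeR adjusted p = 0.688).

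Set against the constitutive subunit each replaces, Psmb9 stood lower in propyzamide. The TPM of Psmb9 was 0.0739, 0.0254 and 0.0574 times that of Psmb6 in propyzamide and 0.181 and 0.167 times in vehicle, or 0.0522 ± 0.0247 (SD, n = 3) against 0.174 ± 0.00975 (SD, n = 2). In counts the same ratio was 0.0777, 0.0170 and 0.0838 in propyzamide and 0.239 and 0.203 in vehicle. Neither ratio overlapped between the groups, but how often such ratios do not overlap over other pairs of genes was not computed. The forms of Psmb9 differed between libraries. In propyzamide replicate 1, 14.58 counts fell on Psmb9-207, annotated for nonsense-mediated decay. In vehicle replicate 2, 9.64 fell on the retained-intron form Psmb9-205. Psmb8 was at 0.102, 0.143 and 0.164 times Psmb5 in propyzamide and at 0.243 and 0.165 times in vehicle, so replicate 3 of propyzamide and replicate 2 of vehicle nearly met. Psmb10 was at 3.66, 2.19 and 4.49 times Psmb7 in propyzamide and at 2.29 and 6.75 times in vehicle, with a wide spread in both groups. In each library most of the Psmb10 TPM came from forms other than the coding Psmb10-201. The summed TPM of all 3 over that of the 3 constitutive subunits, in which Psmb10 carried most of the upper sum, overlapped, at 0.4996 ± 0.106 in propyzamide (SD, n = 3) and 0.509 ± 0.117 in vehicle (SD, n = 2).

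Nlrc5 encodes the activator that, in mouse and human, drives transcription of class I genes through the X and Y boxes of their promoters. It had 2, 2 and 4 counts in propyzamide and 2 and 8 counts in vehicle, which is 0.680, 1.03 and 2.44 CPM against 0.827 and 4.54 CPM. The groups overlapped. A floor of 3 counts equals 1.02 to 1.83 CPM in a library, so most values lay at or near the floor and a difference in Nlrc5 was not detectable at this depth.

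**Figure D3:**
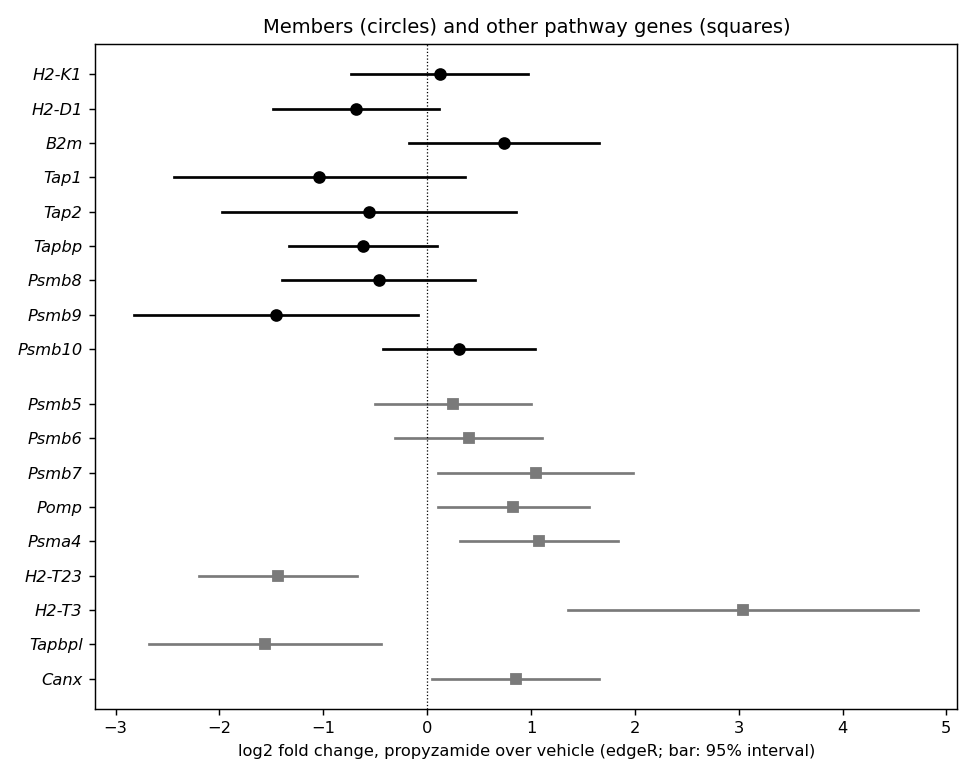
Log2 fold changes of propyzamide over vehicle (x axis) from edgeR with 95% intervals for the 9 tested members (black circles) and 9 other pathway genes (grey squares). Among members only the interval of Psmb9 excludes 0, without adjustment for multiple testing, and 0 of the 18 genes had an adjusted p under 0.05.

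The files give values per transcript, which add a view of what was counted for each gene. The 10 genes have 71 annotated transcripts, of which 42 had at least 6 counts over the 5 libraries and 23 were tested. edgeR called 0 of these 23 and 0% of all 16682 tested transcripts, with 10.2% of all transcripts at an unadjusted p under 0.05. DESeq2 also called 0 of the 23, against 2.42% of all transcripts. The shares described next are of estimated counts that RSEM divided among overlapping transcripts, so they are less certain than the gene totals.

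For H2-K1, the short transcript H2-K1-215, annotated as a retained intron, took 16.0%, 23.7% and 19.1% of the gene's counts in propyzamide and 5.49% and 9.96% in vehicle. The coding transcript H2-K1-211 took 32.2%, 42.4% and 43.5% in propyzamide and 24.6% and 29.6% in vehicle. Both shares were higher in all 3 propyzamide libraries, while those of the minor forms H2-K1-204, H2-K1-206 and H2-K1-210 were lower in all 3. How often shares do not overlap between the groups over all transcripts was not computed. The share of the long coding form H2-K1-201 varied within the groups, at 20.4%, 0.491% and 7.23% in propyzamide and 37.2% and 12.6% in vehicle. The log2 fold change of H2-K1-215 itself was 1.37 ± 0.54 (SE; edgeR adjusted p = 0.482). The main form of H2-D1 varied less, with 68.3%, 75.7% and 71.0% of its counts in H2-D1-202 in propyzamide and 66.6% and 67.9% in vehicle.

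For Tap2, the coding transcript Tap2-201 was listed at 0 counts in all 3 propyzamide libraries and at 17.05 and 11.08 counts in vehicle. In propyzamide 100% of the counts, 25, 6 and 32.93, were assigned to Tap2-202, annotated as a retained intron, which also took 62.8% and 40.0% in vehicle. The difference in Tap2-201 did not pass the test (unadjusted p = 0.0145, edgeR adjusted p = 0.373). For Psmb8, the retained-intron form Psmb8-205 took 83.5%, 13.9% and 81.6% of the counts in propyzamide and 12.6% and 7.71% in vehicle, so replicate 2 of propyzamide stood close to vehicle. B2m has 1 annotated transcript, and Tapbp drew at least 84.2% of its counts from Tapbp-206 in every library.

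**Figure D4:**
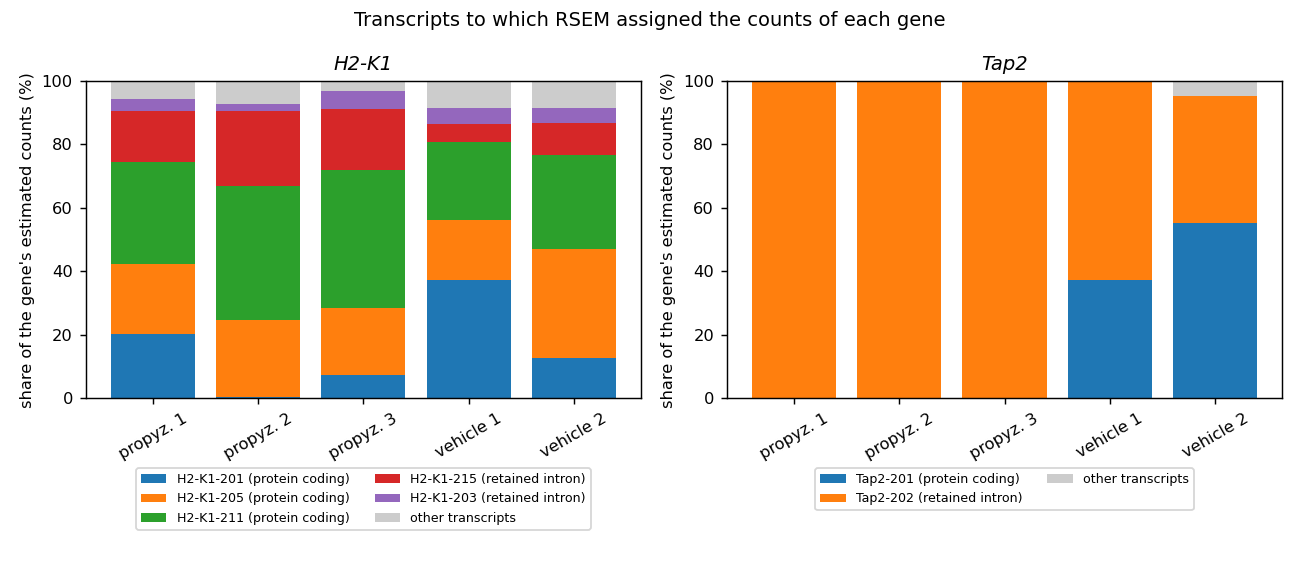
Share of the estimated counts of H2-K1 (left) and Tap2 (right) that was assigned to each transcript (y axis, percent, stacked to 100) in the 3 propyzamide and 2 vehicle libraries. H2-K1-215 takes 16.0% to 23.7% in propyzamide and 5.49% to 9.96% in vehicle, and Tap2-201 is seen in vehicle only.

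The rest of the pathway was followed with fixed lists. Of 18 non-classical and class I-like heavy chains, 10 were tested, 0 rose, 0 fell and 10 did not pass, with a median log2 fold change of -0.08 that turned to 0.11 without vehicle replicate 1. H2-T23, the mouse Qa-1 heavy chain that presents leader peptides to NK receptors, had 20.4, 18.0 and 19.5 CPM in propyzamide and 58.7 and 46.0 CPM in vehicle. The groups were clearly apart, and the log2 fold change of -1.44 ± 0.35 (SE) stood just outside the threshold (edgeR adjusted p = 0.0515). H2-T23 passed in 7 of the 17 alternatives run for it, of which 1 was a threshold of 0.1, with adjusted p from 0.0420 (edgeR, upper-quartile scaling) to 0.415 (edgeR, without vehicle replicate 1). H2-T3, the thymus leukaemia antigen carried by gut epithelium, had 10.5, 9.75 and 21.3 CPM in propyzamide and 2.48 and 0.567 CPM in vehicle. It lay in the opposite direction, at 3.04 ± 0.78 (SE; edgeR adjusted p = 0.0596), and passed in 5 of 17, of which 1 was a threshold of 0.1, with adjusted p from 0.00433 (edgeR, no filter on low counts) to 0.866 (limma, log2(TPM + 1)). In TPM its groups overlapped, at a mean of 5.82 in propyzamide and 6.28 in vehicle, and limma on log2(TPM + 1) gave a log2 fold change of 0.42.

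Of the 10 genes of peptide loading and trimming, all were tested and 10 did not pass, with a median of -0.05 that turned to 0.09 without vehicle replicate 1. Tapbpl, a tapasin-like peptide editor, stood at -1.56 ± 0.51 (SE; edgeR adjusted p = 0.135), with 5.44, 4.62 and 8.52 CPM in propyzamide and 20.3 and 15.9 CPM in vehicle. Canx, the chaperone calnexin that holds newly made heavy chains, stood at 0.85 ± 0.37 (SE; edgeR adjusted p = 0.242). Canx had 198, 181 and 217 CPM in propyzamide and 139 and 80.0 CPM in vehicle, so the groups of both genes were apart in CPM, in opposite directions. In TPM the groups of Canx overlapped, at 56.8, 39.5 and 44.7 in propyzamide and 62.1 and 16.2 in vehicle, while those of Tapbpl stayed apart. In CPM the groups overlapped for 8 of the 10 genes, and over all genes 37.5% did not overlap.

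Of the proteasome genes outside the members, 19 (core subunits, the assembly factor Pomp and the activators Psme1 to Psme4) were tested and 19 did not pass. Yet 19 of 19 log2 fold changes were positive, with a median of 0.56. The activators Psme1 and Psme2 stood at 0.32 and 0.60 (edgeR adjusted p = 0.668 and 0.370). In CPM the groups did not overlap in 13 of the 19, all higher in propyzamide, against 16.7% of all genes, but in TPM the groups overlapped in 19 of 19. The signs depend on scaling: with no scaling beyond the library total 12 were positive and 7 negative, and with upper-quartile scaling 18 and 1. With limma on log2 TPM, at either pseudocount, 12 were positive and 7 negative. In these settings the median of all genes also moved, to -0.38 with no scaling and to -0.14 with upper-quartile scaling, and the median of the 19 stayed 0.44 to 0.67 above that of all genes in every setting but 1; with no filter on low counts it lay 1.82 above. Psma4, a core subunit, stood at 1.07 ± 0.35 (SE; edgeR adjusted p = 0.129) and Pomp at 0.83 ± 0.33 (SE; edgeR adjusted p = 0.211). The replaced catalytic subunits Psmb5, Psmb6 and Psmb7 stood at 0.25, 0.40 and 1.05 (edgeR adjusted p = 0.771, 0.568 and 0.222).

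Of 21 regulators of class I genes and of interferon signalling, 20 were tested and 20 did not pass, with a median of -0.42. Irf2, a factor that binds interferon response elements, had 22.4, 15.4 and 24.4 CPM in propyzamide and 47.1 and 53.9 CPM in vehicle, a log2 fold change of -1.28 ± 0.36 (SE; edgeR adjusted p = 0.0819). Irf2 passed in 2 of 17 alternatives, of which 1 was a threshold of 0.1. Irf9, another interferon regulatory factor, stood at -1.06 ± 0.46 (SE; edgeR adjusted p = 0.248), and both genes were lower in all 3 propyzamide libraries. Of 22 interferon ligands and targets, 9 were tested and 9 did not pass, with a median of -0.34 that was 0.26 without propyzamide replicate 1 and -0.92 without propyzamide replicate 3. Zbp1, a sensor of nucleic acids, stood at -1.94 ± 0.74 (edgeR adjusted p = 0.187). Gbp2, a guanylate-binding protein induced by interferon-gamma, stood at 1.17 ± 0.54 (edgeR adjusted p = 0.276). Ifng itself had 0 counts in each of the 5 libraries, which allows up to 1.02 to 1.83 CPM per library.

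Genes of the cells that read class I were at low levels. The 15 genes of class I recognition (CD8, CD3, granzymes and NK receptors) summed to 1.02, 5.65 and 3.04 CPM in propyzamide and to 21.5 and 23.8 CPM in vehicle. None of the 15 passed the filter on low counts, and 8 had 0 counts in all propyzamide libraries against 1 in all vehicle libraries. Zeros were more frequent in propyzamide over the whole transcriptome too. There 18466, 19932 and 16798 genes had a count in propyzamide and 31540 and 27456 in vehicle. Their summed counts were 3, 11 and 5 in propyzamide and 52 and 42 in vehicle, while the background rate alone would give 1.70, 14.0 and 3.81 counts in propyzamide and 29.9 and 17.2 in vehicle. The propyzamide counts thus lay at the background level, and the part of background in the difference between the groups was not tested. Of 17 leukocyte markers, 9 were tested and 0 called, with sums of 42.1, 82.1 and 102 CPM in propyzamide and 102 and 95.9 CPM in vehicle. Lcp1, an actin-bundling protein of leukocytes, stood at -1.63 ± 0.62 (edgeR adjusted p = 0.184) and Tyrobp, a myeloid signalling adaptor, at 1.73 ± 0.84 (edgeR adjusted p = 0.302). Of 8 endothelial markers 4 were tested and 0 called, with Vwf at -1.47 and Eng at 1.06 (edgeR adjusted p = 0.215 and 0.615), and with sums of 15.4 to 65.7 CPM in propyzamide and 45.9 and 43.7 CPM in vehicle. Eng turned negative with limma on log2 TPM and with the replicate block.

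Of 12 epithelial markers all were tested and 1, the intestinal transcription factor Cdx2, rose, while the sums were 6277 to 8556 CPM in propyzamide and 7016 and 6041 CPM in vehicle. Cdx2 stood at 3.54 ± 0.68 (SE; edgeR adjusted p = 0.0274). Leaving out the first vehicle library gave an edgeR adjusted p of 0.166, leaving out the other 0.183, and leaving out replicate 2 of propyzamide 0.0539. With limma it was 0.0514 and 0.0931. Fibroblast markers summed to 329 to 1029 CPM in propyzamide and to 433 and 320.0 CPM in vehicle, with 0 of 8 called, and Dcn and Lum, matrix proteoglycans, at 1.84 and 1.81 (edgeR adjusted p = 0.141 and 0.165). Synm and Cnn1, of smooth muscle, stood at 2.50 and 2.23 (edgeR adjusted p = 0.0504 and 0.0783), and passed in 9 and 6 of 17 alternatives. For each of these genes, 1 of the alternatives passed was a threshold of 0.1. Dcn passed in 3 and Lum in 2. The part of these differences in cell markers, gut segment and background in the values of the class I genes was not tested. With background subtracted Psmb9 stood at -1.54, H2-D1 at -0.81 and B2m at 0.64, against -1.45, -0.69 and 0.74 without subtraction.

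Over the 5 libraries the members' mean profile, centred log2 CPM averaged over the 9 tested members, was compared with that of 5000 other tested genes of at least moderate level. The 5 genes of smallest root-mean-square difference were Ifngr2 (0.0191), Polg (0.0669), Ccdc127 (0.0943), Smim14 (0.102) and Rbck1 (0.109), in log2 units. The members themselves lay farther from their mean profile, from 0.196 for H2-D1 to 0.787 for B2m and 0.821 for Psmb9. Nearness to this average is therefore not nearness to the single members. Ifngr2, a chain of the interferon-gamma receptor, had 55.1, 48.8 and 81.0 CPM in propyzamide and 93.9 and 74.3 CPM in vehicle. With 5 libraries many genes come close to any profile, and 0 of these 5 passed the test (edgeR adjusted p 0.426 to 0.771).

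**Figure D5:**
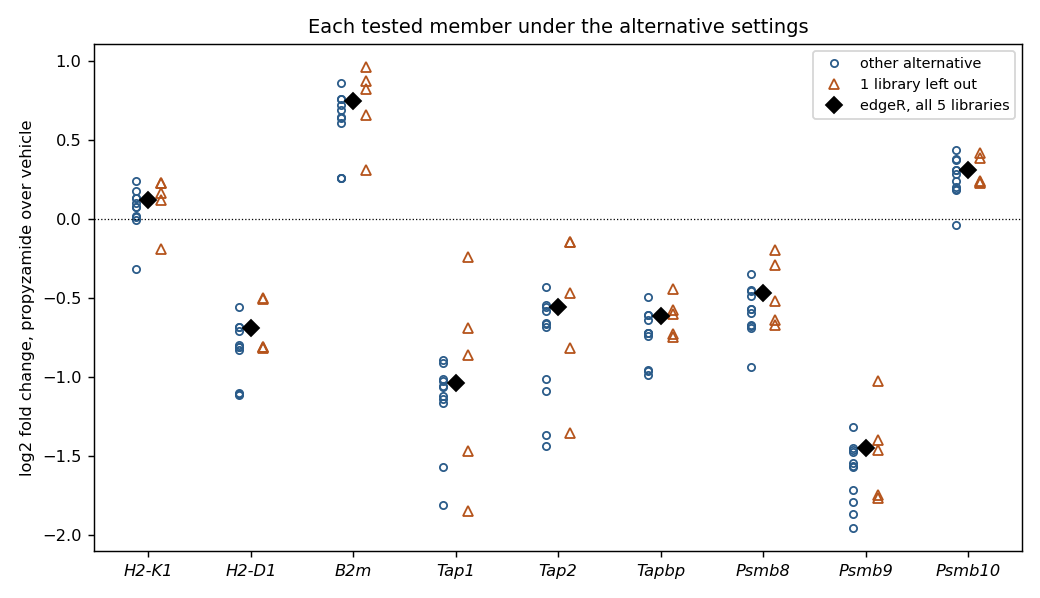
Log2 fold change of propyzamide over vehicle (y axis) of each tested member with edgeR on all 5 libraries (diamonds), with 1 library left out (triangles) and under the other alternatives (circles). H2-D1, Tap1, Tap2, Tapbp, Psmb8 and Psmb9 stay under 0 and B2m above 0 in every setting shown, while H2-K1 and Psmb10 cross it.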

How the data were processed

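The deposited tables, 1 per library, give for each transcript an expected count, a TPM and its percent of the gene's expression, per the file headers. Per the submitters' processing notes, the tools were RSEM and kallisto and the build was GRCm38, with no role or setting named. The library protocol was SMART-seq2, per the labels' protocols. How strand was treated is not stated. The authors' expected counts and TPM of 142647 transcripts were summed to 55471 genes. Symbols were found for 99.41% of the identifiers, and coordinates come from GENCODE M21.

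Counts were rounded and tested with edgeR 4.0.16 (filterByExpr, TMM, quasi-likelihood, Benjamini-Hochberg, threshold 0.05; R 4.3.3) on all 5 libraries with the group as the only term. Alternatives used DESeq2 1.42.0 and limma 3.58.1 on log2(TPM + 1) and log2(TPM + 0.1). CPM use TMM-scaled totals. The steps were tested on simulated data.

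The members and lists were chosen with earlier results of these data known. All members were named, as were up to 4 called genes of each list (otherwise the 2 of smallest p), the catalytic subunits Psmb5, Psmb6 and Psmb7 and the 5 genes nearest in profile (mean log2 CPM of at least 4). The labels do not number the animals, so the spread behind each p-value may in part be technical. No pair of libraries was a duplicate (chi-square per degree of freedom of at least 12.4 over genes with 10 or more counts). Floors cover counting error only, since reads carry no molecular identifiers.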

Additional observations from a re-analysis of the deposited data

How the results depend on the processing

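The 9 tested members were called in 0 of the 17 alternatives, by edgeR, DESeq2 and limma alike, as were their transcripts with DESeq2. Their lowest adjusted p, for Tap1 and Psmb9, came with the replicate block (0.0612 and 0.0695), under which Irf2 passed (0.0496). The direction of H2-K1 turned with no scaling (-0.32), upper-quartile scaling (-0.0097) and without propyzamide replicate 2 (-0.19, against up to 0.23 without propyzamide replicate 1). That of Psmb10 turned with no scaling (-0.038). All class I genes summed to 1 feature, which is not H2-K1 alone, stood at -0.26. Psmb5 turned with no scaling (-0.20) and limma (-0.11 at both pseudocounts), Psmb6 with limma (-0.021 at both), and Eng with limma (-0.60 and -1.21) and the replicate block (-0.23). The other 7 tested members kept their sign. The members' median ranged from -0.20 without vehicle replicate 1 to -0.99 with limma at pseudocount 0.1. In that limma setting the median of all genes also moved, to -0.47. The members' median less that of all genes was -0.51 there, against -0.54 with edgeR on all 5 libraries. With no filter on low counts the members' median was -0.46 and that of all genes -1.14, so the members lay 0.68 above.

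The count of genes called over the transcriptome, 229, was 565 with DESeq2, 148 at 10 CPM in 2 libraries, 95 with background subtracted, 490 with limma on log2(TPM + 1), 1323 with no filter on low counts, 571 with no scaling, 362 without rRNA-like and mitochondrial genes, 639 with the replicate block and 657 at a threshold of 0.1. With 1 library left out it ranged from 36 (without vehicle replicate 1) and 55 (without vehicle replicate 2) to 499 (without propyzamide replicate 1), and was 78 without propyzamide replicate 3. The cause of these moves was not tested. Same-numbered libraries of the groups share only a number: the correlation of their deviations was 0.170 and 0.147. A library left out of vehicle leaves 1, assumed to vary like the propyzamide libraries. Depth limits Nlrc5, Tap1, Tap2 and Psmb9, with as few as 2 counts in a library.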
